A study of Mus musculus with 3 samples.

Results

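The cyclin-dependent kinase (CDK) inhibitors are the proteins that bind and restrain the kinases of the cell cycle. Their 7 genes, chosen by symbol, form the CIP/KIP family (Cdkn1a, Cdkn1b and Cdkn1c) and the INK4 family (Cdkn2a, Cdkn2b, Cdkn2c and Cdkn2d), and all 7 were among the 46078 genes of the deposited table. They were compared in RAW 264.7 cells, a mouse macrophage line derived from an Abelson virus tumour. RNA was sequenced in 3 libraries, 1 per condition. Cells of the first were given 0.5 mM hydroxyurea (HU) together with gold nanocages, the second HU alone, and the third was the control. RNA was taken after 12 hours. The labels give no dose for the nanocages and no vehicle for the control, and no library of cells given nanocages without HU was analysed here. With 1 library per condition no difference below has a replicate check, and no p-value was computed.

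CIP/KIP proteins bind complexes of a cyclin and a CDK, and block CDK2 complexes most strongly. INK4 proteins bind CDK4 and CDK6 alone and keep D-type cyclins from joining them. Both families hold the retinoblastoma family of pocket proteins in its active form and so restrain entry into S phase. Cdkn1a, which encodes p21, is a direct target of p53, the transcription factor that responds to DNA damage. HU inhibits ribonucleotide reductase, starves replication forks of nucleotides and activates that response.

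The libraries held 18644333 reads in HU plus gold nanocages, 20057329 in HU and 14990564 in control. Levels are given in the authors' FPKM, which scales a count by exon length and library depth and so may be compared between genes. Ratios compare CPM, which scales a count by depth alone. Each ratio has an exact 95% interval (Clopper-Pearson), and each level an exact Poisson one, for counting error and nothing else. A ratio with an interval wholly over or under 1 is called above or below counting error. The call depends on read number as well as on the ratio, so genes with many reads are called at smaller ratios. The shares over all genes given beside such counts are not matched for reads. In bulk RNA, fewer cells with a transcript and less of it per cell cannot be told apart. Macrophage markers were present, with 7 of 8 at a mean of at least 1 FPKM, and their summed level was 2788 FPKM in HU plus gold nanocages, 2917 in HU and 3040 in control. None of 15 markers of lymphocytes, fibroblasts, granulocytes and mast cells reached that mean, and 11 were at 0 in every library.

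Cdkn1a was 6.54-fold higher in HU than in control (interval 6.25 to 6.84). Cdkn2d, which encodes p19-INK4d, was lower (0.357-fold, 0.305 to 0.418), and Cdkn1b and Cdkn2c were lower by smaller amounts. Cdkn1c, Cdkn2a and Cdkn2b had no reads in any library. Gold nanocages given with HU left all 4 measured members within 1.15-fold of their level in HU alone.

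**Figure D1:**
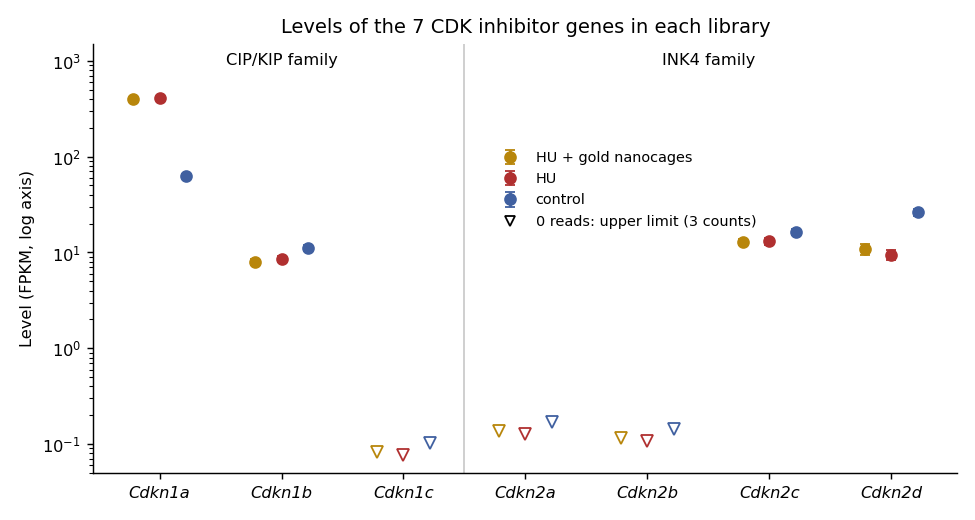
Level of each CDK inhibitor gene in FPKM on a log axis, in HU plus gold nanocages, HU and control from left to right within each gene. Points are single libraries, bars are exact Poisson 95% intervals of counting error, and open triangles mark the upper limit that 3 counts allow for genes without reads. Cdkn1a stands at 401 and 412 FPKM in the libraries given HU, above 63.0 FPKM in control, and Cdkn2d at 10.8 and 9.41 FPKM, below 26.4 FPKM in control.

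Cdkn1a was at 401 FPKM in HU plus gold nanocages (interval 395 to 407), 412 FPKM in HU (406 to 418) and 63.0 FPKM in control (60.3 to 65.7). The libraries given HU were close to each other and far above control. These levels rest on 16621, 18356 and 2098 reads in the same libraries. Cdkn1a was the 84th most abundant gene by FPKM in HU, against the 996th in control, and the 88th in HU plus gold nanocages. Among 11159 genes with at least 1 FPKM in either library of HU and control, it had the seventh highest log2 ratio of FPKM plus 1 (2.69). By the difference in CPM it came first of all genes, at 915 CPM in HU and 140 CPM in control, a gain of 775 CPM. Against control it was also 6.37-fold higher in HU plus gold nanocages (6.09 to 6.67), a comparison that uses the same control library. There it ranked 8th of 11167 genes by log2 ratio and 3rd of all genes by the difference in CPM.

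Of 11159 genes, 1.51% were at least 2-fold higher and 0.995% at least 2-fold lower in HU than in control on the scale of FPKM plus 1. These 279 genes became 479 with 0.1 FPKM added in place of 1 and 64 with 5 FPKM added. Cdkn1a was the only member of the 4 measured in the first set, and Cdkn2d the only one in the second. Among protein-coding genes the shares were 0.953% and 0.425%. By counting error, 18.7% of 10849 genes with a mean of at least 1 FPKM were above it and 20.1% below it, while 1 of the 4 members was above and 3 were below. In HU plus gold nanocages against control Cdkn1a was likewise at least 2-fold higher, beside 1.6% of 11167 genes and 0.993% of protein-coding ones. Cdkn2d was at least 2-fold lower there, beside 1.03% and 0.362%, but not with 5 FPKM added in place of 1 (log2 ratio -0.99). Cdkn1a was again above counting error and the other 3 below it, where 19.6% of genes were above and 20.1% below.

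**Figure D2:**
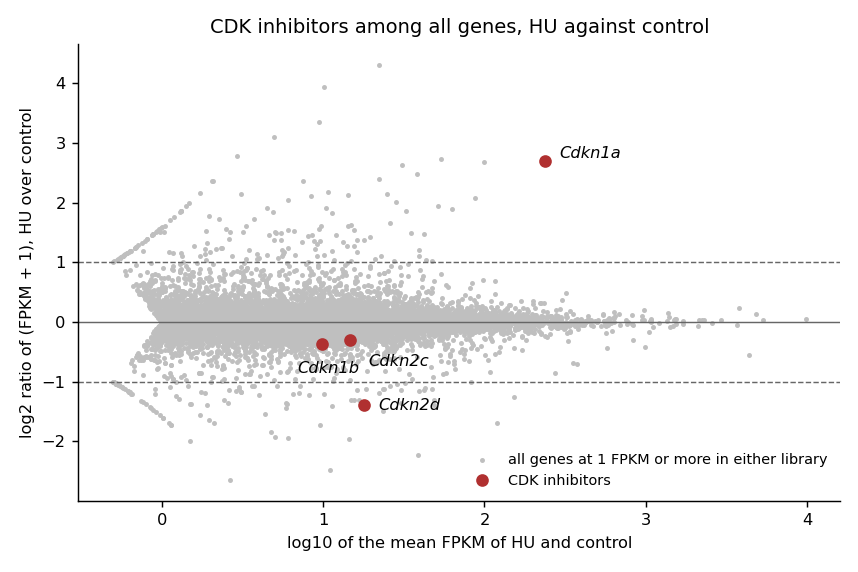
Log2 ratio of FPKM plus 1 of HU over control against the log10 of the mean FPKM of both libraries, for all genes with at least 1 FPKM in either (grey) and the 4 measured CDK inhibitors (red). Dashed lines mark 2-fold. Cdkn1a lies above the upper line at 2.69, Cdkn2d below the lower one at -1.39, and Cdkn1b (-0.37) and Cdkn2c (-0.31) lie between the lines.

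The Cdkn1a gene spans chr17:29090976-29100727 on the plus strand of mm10. RefSeq gives it 2 start sites that lie 2790 bases apart (GRCm38.p6, the same primary assembly), and the 250 bases before each are shown because they bear on the member with the highest ratio. The upstream window, chr17:29090729-29090978, holds a pair of CATG cores spaced as in a p53 binding site (CATG and CATG parted by NNNNNN, which reads the same on both strands), in capitals here. The downstream window, chr17:29093519-29093768, holds 2 GC boxes (GGGCGG, both strands searched), in capitals.
Cdkn1a upstream: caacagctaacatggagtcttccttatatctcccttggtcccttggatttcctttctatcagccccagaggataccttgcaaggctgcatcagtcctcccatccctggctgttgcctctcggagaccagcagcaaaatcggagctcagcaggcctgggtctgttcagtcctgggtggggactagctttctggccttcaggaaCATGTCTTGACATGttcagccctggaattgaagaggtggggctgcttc
Cdkn1a downstream: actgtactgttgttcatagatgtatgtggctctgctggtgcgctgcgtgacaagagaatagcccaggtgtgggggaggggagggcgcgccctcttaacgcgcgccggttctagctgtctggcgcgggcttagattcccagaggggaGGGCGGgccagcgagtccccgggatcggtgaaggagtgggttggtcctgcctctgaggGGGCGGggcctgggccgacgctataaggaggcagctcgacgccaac
The first base of the CATG pair lies 48 bases before the upstream start site and 2838 bases before the downstream one. Such a pair occurred in 0.490% of the 32851 RefSeq windows of this length, and in 1 of 9 windows of the 6 members that have one. It was the only p53 pattern searched, so this share leaves out p53 sites with other cores and is not their frequency. A GC box occurred in 32.7% of windows. These were among 8 motifs searched in the 9 windows. Of the other motifs, CCAAT (33.8% of all windows) occurred in Cdkn1b and Cdkn2d, TTTCCCGC (0.895%) in Cdkn2a and TTTGAA (16.0%) in Cdkn2b. The motifs TATAAA, TTTGGCGC and GTAAACA occurred in no member. A match describes the letters and no binding was measured in these cells. The deposited reads per gene do not tell which start site was used.

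Cdkn1b encodes p27, which binds CDK2 complexes in resting cells and is cleared when cells enter the cycle. It was at 7.92 FPKM in HU plus gold nanocages (7.33 to 8.54), 8.50 FPKM in HU (7.91 to 9.12) and 11.2 FPKM in control (10.5 to 12.1). Both libraries given HU were below control, at 0.704-fold (0.634 to 0.782) for HU plus gold nanocages and 0.756-fold (0.683 to 0.837) for HU. The read numbers were 672, 776 and 767, so the lower level in HU is relative to a deeper library. Cdkn1b lies at chr6:134920401-134925513 on the plus strand.

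Cdkn1c encodes p57, the member of the family that is imprinted and tied to development. It had no reads in any library, which allows up to 0.0833 FPKM in HU plus gold nanocages, 0.0775 in HU and 0.104 in control, taking 3 counts as the upper limit of a count of 0 in each library. Its nearest protein-coding neighbours at chr7, Kcnq1 and Slc22a18, had at most 1 read per library.

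Cdkn2d was at 10.8 FPKM in HU plus gold nanocages (9.52 to 12.2), 9.41 FPKM in HU (8.26 to 10.7) and 26.4 FPKM in control (24.1 to 28.8). Its reads were 256, 240 and 502, so that even the raw count was lower in the deeper libraries. It was 2.80-fold lower in HU than in control (2.39 to 3.28) and 2.44-fold lower in HU plus gold nanocages than in control (2.09 to 2.85). Among 9658 protein-coding genes with at least 1 FPKM in HU or control, 9 had a lower log2 ratio than Cdkn2d, whose value was -1.39. Among all 11159 genes, the set used for Cdkn1a, it ranked 29th from the lowest. In HU plus gold nanocages against control it ranked 59th from the lowest of 11167 genes. Cdkn2d lies at chr9:21288410-21291407 on the minus strand. Kri1, which starts 441 bases downstream of it on the same strand, was at 24.7, 24.5 and 29.1 FPKM in HU plus gold nanocages, HU and control, and 0.842-fold in HU against control (0.790 to 0.897). RefSeq starts Cdkn2d at 21291209, whereas the GENCODE span above runs to 21291407. The 250 bases before the RefSeq start site, chr9:21291210-21291459, are shown as the counterpart of the Cdkn1a windows. They hold 3 GC boxes on either strand, in capitals, and no CATG pair. The bases of this window up to 21291407, with all 3 GC boxes, lie inside the gene as GENCODE gives it.
Cdkn2d: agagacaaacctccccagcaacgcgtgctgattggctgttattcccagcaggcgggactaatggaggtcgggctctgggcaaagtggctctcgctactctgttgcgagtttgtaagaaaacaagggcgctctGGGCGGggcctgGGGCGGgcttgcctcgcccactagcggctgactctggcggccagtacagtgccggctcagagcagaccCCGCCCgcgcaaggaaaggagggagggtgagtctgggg

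Cdkn2c encodes p18-INK4c. It was at 12.9 FPKM in HU plus gold nanocages (11.9 to 13.9), 13.1 FPKM in HU (12.1 to 14.1) and 16.4 FPKM in control (15.2 to 17.7). The level was 0.795-fold in HU against control (0.714 to 0.885) and 0.783-fold in HU plus gold nanocages against control (0.702 to 0.874). Its neighbour Faf1, 9399 bases away on the other strand, was lower by less, at 0.903-fold in HU against control (0.839 to 0.972). Cdkn2c lies at chr4:109660876-109667189 on the minus strand.

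Cdkn2a, whose locus encodes both p16-INK4a and the p53 activator ARF, and its neighbour Cdkn2b, which encodes p15-INK4b, had no reads among the 53692226 of the 3 libraries. The upper limits were 0.137 FPKM in HU plus gold nanocages, 0.128 in HU and 0.171 in control for Cdkn2a, and 0.116, 0.107 and 0.144 FPKM for Cdkn2b. The genes lie side by side on the minus strand, at chr4:89274471-89294653 and chr4:89306299-89311039. Genes around them were looked at after the zeros were seen. The noncoding gene Gm12606, 1068 bases from Cdkn2a, had 285, 266 and 228 reads in HU plus gold nanocages, HU and control. Mtap, a methionine salvage enzyme gene 93390 bases from Cdkn2a, had 2193, 2357 and 1678 reads. This side held genes without reads as well. Gm26490, between Gm12606 and Mtap, had 1 read in control and none elsewhere. Gm12607, within Mtap, and Gm12602, Wincr1 and Mir31, past it, had none. On the other side, the next genes in the table, Gm12609, Gm12608, Gm12610 and Gm27580, and the next protein-coding gene Dmrta1, 368397 bases from Cdkn2b, had none. The run of genes without reads that starts at Cdkn2a held 23 genes of the table, 5 of them protein-coding, over 2435 kb. Of all genes 57.3% had no reads in any library, and 117 of 6470 runs were at least as long in genes. Whether the DNA of Cdkn2a and Cdkn2b is present in these cells was not tested.

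**Figure D3:**
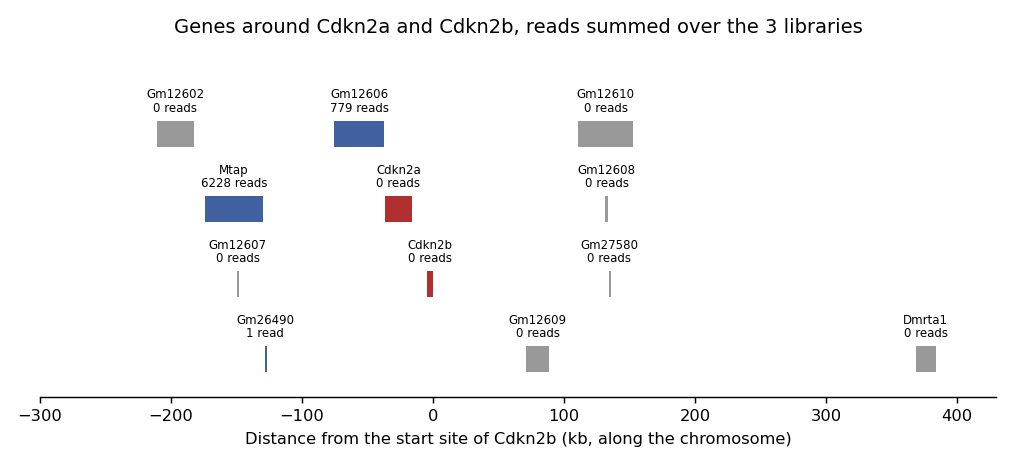
Genes around Cdkn2a and Cdkn2b by their distance in kb from the start site of Cdkn2b, with the reads of the 3 libraries summed (CDK inhibitors red, other genes with reads blue, genes without reads grey). Distances are drawn to scale. The shortest genes are drawn wider than their true length so that they can be seen. Rows separate the labels and have no meaning. To the left of Cdkn2a, Gm12606 and Mtap have reads and Gm26490 has 1, while Gm12607 and Gm12602 have none. No gene shown to the right of Cdkn2a has any.

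The makeup of the inhibitor pool differed between HU and control. The summed level of the CIP/KIP genes was 409 FPKM in HU plus gold nanocages, 420 FPKM in HU and 74.2 FPKM in control. The summed level of the INK4 genes was lower in both libraries given HU, at 23.7 FPKM in HU plus gold nanocages, 22.5 FPKM in HU and 42.8 FPKM in control. Cdkn1a made up 92.7% of the summed level of all 7 genes in HU plus gold nanocages and 93.0% in HU, against 53.8% in control. The exon lengths of GENCODE M21 were tried after the data were seen. With them the level of Cdkn1a was 1.60 times lower in every library, because the deposited length is 2223 bases and the GENCODE one 3553. Its share was then 89.5%, 89.8% and 44.6%, where Cdkn2d was also longer (1574 bases in GENCODE, 1271 deposited).

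The order of levels below Cdkn1a also differed. In control the order was Cdkn2d, Cdkn2c, Cdkn1b, with intervals that do not overlap. In HU it was Cdkn2c, Cdkn2d, Cdkn1b, and the intervals of Cdkn2d and Cdkn1b overlapped. In HU plus gold nanocages the order was that of HU, and the intervals of Cdkn2c and Cdkn2d overlapped. The level of Cdkn2d over that of Cdkn2c was 0.840 in HU plus gold nanocages, 0.721 in HU and 1.60 in control. With GENCODE lengths Cdkn2d was below Cdkn1b in HU, at 7.60 against 8.50 FPKM.

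The nanocages were given at the same time as HU, and the design text of the series speaks of their rescue ability after damage by HU, so HU plus gold nanocages against HU asks what they add. All 4 measured members were near a ratio of 1. Cdkn1a was 0.974-fold (0.954 to 0.995), just below counting error, in a comparison where 7.78% of 10849 genes were below and 8.35% above it. Cdkn2c was 0.986-fold (0.884 to 1.10) and Cdkn1b 0.932-fold (0.839 to 1.03). Cdkn2d was 1.15-fold (0.958 to 1.37), an interval that does not reach 2-fold, and it was 2.44-fold lower than in control. No CDK inhibitor was 2-fold apart in this comparison, where 0.574% of 11142 genes were higher by that much and 0.619% lower. Among protein-coding genes the shares were 0.0415% and 0.0207%.

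**Figure D4:**
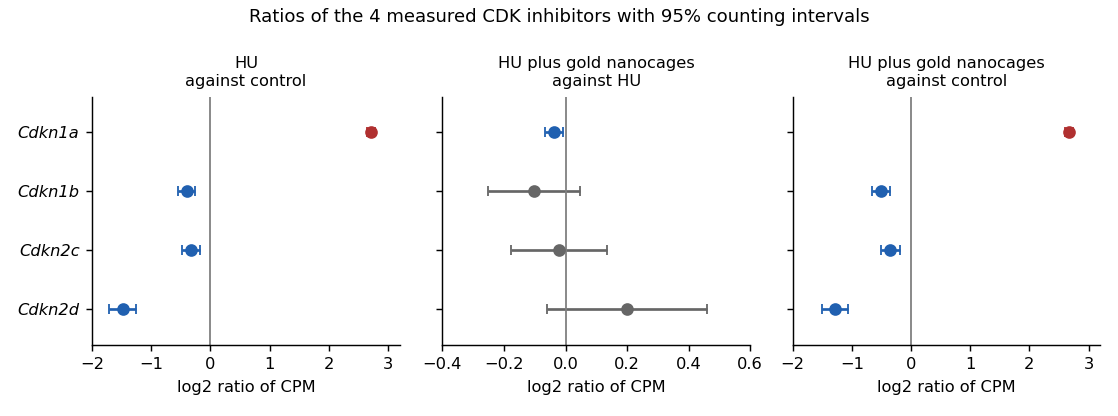
Log2 ratio of CPM of the 4 measured CDK inhibitors in each comparison, with exact 95% counting intervals; red is above, blue below and grey within counting error. The middle panel has a narrower axis. Against control Cdkn1a lies at 2.67 for HU plus gold nanocages and 2.71 for HU, and it lies at -0.04 in HU plus gold nanocages against HU.

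The kinase partners of the inhibitors lay closer to control than Cdkn1a did. In HU against control, of 6 CDK genes Cdk2 was above counting error and Cdk1 and Cdk6 were below it, numbers near the shares over all genes (18.7% above and 20.1% below). Cdk2, the main target of p21 and p27, was at 45.3, 45.2 and 41.6 FPKM in HU plus gold nanocages, HU and control (1.09-fold in HU against control, 1.02 to 1.16). Cdk4 was within counting error (1.02-fold, 0.987 to 1.05), Cdk6 was 0.845-fold (0.815 to 0.876) and Cdk1, the mitotic kinase, 0.755-fold (0.714 to 0.798). The summed CIP/KIP level was 9.04 times that of Cdk2 in HU plus gold nanocages, 9.30 times in HU and 1.78 times in control. With GENCODE lengths for both, which differ from the deposited ones for Cdkn1a and Cdk2, it was 14.6, 15.1 and 3.11 times. The summed INK4 level was 0.150, 0.142 and 0.269 of that of Cdk4 and Cdk6 in the same libraries. These are ratios of mRNA levels per length and say nothing of protein.

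Cyclins differed in both directions, beside 18.7% of all genes above and 20.1% below counting error. Of 8 measured, Ccne2 (2.23-fold, 2.05 to 2.42) and Ccne1 (1.55-fold, 1.43 to 1.68), the partners of CDK2 at the start of S phase, were above counting error in HU against control. Ccnb1 (0.452-fold, 0.429 to 0.477), Ccna2 (0.715-fold, 0.676 to 0.756), Ccnb2, Ccnh and Ccnd1 (0.944-fold, 0.917 to 0.972) were below it. Of 5 genes that set or remove the inhibitory phosphate of CDKs, 2 were above and 3 below counting error, against the same shares over all genes. The phosphatases among them stood with Cdc25b at 0.440-fold (0.404 to 0.479), Cdc25c at 0.525-fold (0.454 to 0.607) and Cdc25a at 1.31-fold (1.23 to 1.40). Among the pocket proteins Rbl2, which encodes p130, was 2.49-fold higher (2.22 to 2.79), Rb1 was 1.38-fold higher (1.22 to 1.57) and Rbl1 was within counting error.

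Genes that clear the CDK inhibitors or bind them for disposal had a median log2 ratio of 0.03 over 14 measured genes in HU against control, beside -0.01 over the 10849 genes. Of these 14, 6 were above and 4 below counting error, beside 18.7% and 20.1% of all genes. Skp2, the ubiquitin ligase subunit that recognises p27, was 1.09-fold (1.01 to 1.16). Dtl, the ligase subunit for p21 on chromatin, was 1.47-fold higher (1.38 to 1.57), and Pcna, the replication clamp that binds p21, 1.27-fold higher (1.24 to 1.31). Cdc20, the activator of the anaphase promoting complex, was 0.495-fold (0.468 to 0.524).

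Transcription factors and other regulators known to act on these genes are set beside 18.7% of all genes above and 20.1% below counting error. Trp53 itself was at 70.0, 72.8 and 73.5 FPKM in HU plus gold nanocages, HU and control, within counting error in HU (0.991-fold, 0.953 to 1.03). Among 9 measured regulators of Cdkn1a, 3 were above and 4 below counting error. Myc was 0.654-fold (0.607 to 0.704), Klf6 0.639-fold (0.590 to 0.691) and Smad3 1.52-fold (1.39 to 1.67). Of 4 measured regulators of Cdkn1b, 1 was above and 1 below counting error. Foxo3, a known activator of Cdkn1b, was 2.59-fold higher (2.41 to 2.78), while Cdkn1b was lower. Of 9 measured regulators of the INK4 genes, 3 were above and 0 below counting error. Id1 was 3.50-fold higher (2.58 to 4.84) and Rnf2, a Polycomb ligase gene, 1.33-fold higher (1.22 to 1.44). Of the INK4 genes Cdkn2a and Cdkn2b had no reads, and a link of these regulators to Cdkn2c or Cdkn2d was not tested. Other genes with CDK in their name had 1 of 10 above and 5 below counting error, among them Cdkn3, a phosphatase for CDKs (0.643-fold, 0.525 to 0.786).

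**Figure D5:**
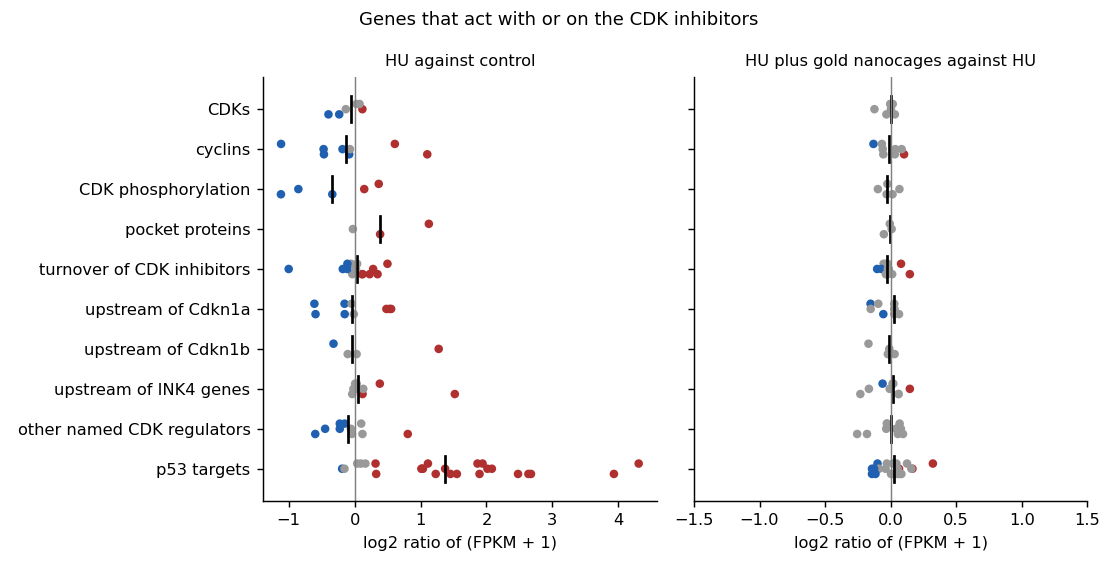
Log2 ratio of FPKM plus 1 for genes that act with or on the CDK inhibitors, in HU against control (left) and HU plus gold nanocages against HU (right, narrower axis). Each point is a gene with a mean of at least 1 FPKM, red above, blue below and grey within counting error, and black bars are list medians. The p53 target list has a median of 1.37 on the left and 0.02 on the right.

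In HU plus gold nanocages against HU, where 8.35% of all genes were above and 7.78% below counting error, these genes lay near 1. All 6 CDKs, all 5 genes of CDK phosphorylation and all 3 pocket proteins were within counting error. Of 8 cyclins Ccne2 was above it, at 33.9 FPKM in HU plus gold nanocages and 31.5 FPKM in HU, and Ccne1 below it (0.910-fold, 0.850 to 0.976). Of the 14 turnover genes 2 were above and 2 below, led by Cul4b at 1.11-fold (1.04 to 1.19). Of the 9 regulators of Cdkn1a 2 were below it, one of them Trp53 (0.961-fold, 0.926 to 0.998). Of the 9 regulators of the INK4 genes 1 was above and 1 below, and the 4 regulators of Cdkn1b and 10 other CDK genes were all within it. Of 25 p53 targets 3 were above and 5 below, beside the same shares of all genes.

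Cdkn1a can be set beside a list of other p53 targets, which was chosen with earlier results of these data known. Of 25 measured, 20 were above and 1 below counting error in HU against control, with a median log2 ratio of 1.37. Over all genes 18.7% were above and 20.1% below, with a median of -0.01. The 5 genes whose pair of log2 ratios (HU over control, HU plus gold nanocages over HU) lay nearest to that of Cdkn1a, among 7253 genes with a mean of at least 5 FPKM, were Slc19a2, Mdm2, Ddit4, Bbc3 and Cep170b. Slc19a2, a thiamine transporter gene, was nearest at a distance of 0.0562 and stood at 95.1, 94.5 and 13.5 FPKM in HU plus gold nanocages, HU and control. Mdm2 encodes the ligase that marks p53 for degradation and lay almost as near, at a distance of 0.0566, with 174, 172 and 26.1 FPKM. With 0.1 FPKM added in place of 1, Mdm2 was the nearest. The other distances were 0.10 for Ddit4, 0.21 for Bbc3 and 0.33 for Cep170b, all over 3 libraries. None of the 7 RefSeq windows of these 5 genes held the CATG pair. As the pair occurred in 0.490% of all RefSeq windows, its absence is the usual case and does not show that these genes lack a p53 site. Sequence outside the windows and p53 sites with other cores were not searched. By level Cdkn1a was above each of these 5 genes in all 3 libraries.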

How the data were processed

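RNA of RAW 264.7 cells was sequenced in 3 libraries, 1 per condition. The deposited table holds whole-number read counts per Ensembl gene, not normalized, and the authors' FPKM values, per the file headers; each FPKM equals the count divided by the exonic size and the summed count, within rounding, for 100% of genes. The exonic size is an other kind of value, a length in bases per the file headers. Per the submitters' processing notes, the build was mm10 and the tools HTSeq 0.6.1, DESeq, HISAT2 2.0.1, SAMtools 0.1.18, cutadapt and bcl2fastq 2.17.1.14. No source used here gives their settings, the annotation release or whether counting used strand, so reads of overlapping genes on opposite strands cannot be told apart. GENCODE M21 has such a gene for Cdkn1a (AC167363.2) and for Cdkn1c (Gm44732), and neither was counted separately.

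Coordinates and biotypes came from GENCODE M21, which holds 98.0% of the table's genes, and start windows from RefSeq (GRCm38.p6), where 6 of the 7 members matched by symbol. Each symbol was represented by its gene with most reads. Ratios of CPM and their 95% intervals were computed with Python 3.11.15 and scipy 1.17.1. Genes 2-fold apart were counted on log2(FPKM + 1), a scale that shrinks the ratios of low genes, among genes with at least 1 FPKM in either library. Counting intervals were checked on simulated counts, with the pass mark for their coverage set over all changed genes after a first run missed it in 1 bin of them. With 1 library per group no test was possible, and reads carry no molecular identifiers. Precision follows depth: 1 read stood for 0.0536 CPM in HU plus gold nanocages, 0.0499 in HU and 0.0667 in control.

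The members, the 10 gene lists and the alternatives were chosen with earlier results of these data known. Named genes are the 7 members, up to 3 genes of each list and comparison with the largest absolute log2 ratio, a set of CDKs, cyclins and regulators, nearest protein-coding neighbours, and the 5 genes most like Cdkn1a. Genes named outside this rule are the noncoding ones near Cdkn1a, Cdkn1b, Cdkn2a and Cdkn2b and the 5 most like Cdkn2d, chosen after their values were seen. Alternatives were 5 scalings of the libraries (among them TMM of edgeR 4.0.16), pseudocounts of 0.1 and 5 FPKM, other filters, CPM in place of FPKM and, added later, GENCODE lengths.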

Additional observations from a re-analysis of the deposited data

How the results depend on the processing

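Under 5 other scalings of the libraries all 60 ratios of the 4 measured members kept their direction and their side of counting error. These scalings shifted log2 ratios by at most 0.0095, so the check covers only very small changes. With a pseudocount of 5 FPKM the log2 ratio of Cdkn2d in HU plus gold nanocages against control was -0.99, short of 2-fold. The numbers of genes at least 2-fold apart were 279 in HU against control, 133 in HU plus gold nanocages against HU and 294 in HU plus gold nanocages against control, and depended on low genes. With a pseudocount of 0.1 FPKM they were 479 in HU against control, 243 in HU plus gold nanocages against HU and 489 in HU plus gold nanocages against control. With one of 5 FPKM they were 64, 6 and 64, and with at least 5 FPKM in either library 132, 21 and 137, because fewer low genes count. By CPM in place of FPKM the share of Cdkn1a was 91.4% in HU plus gold nanocages, 91.4% in HU and 52.1% in control, and with GENCODE lengths 89.5%, 89.8% and 44.6%. The 5 genes most like Cdkn1a were the same 5 under both other settings. Their order changed with a pseudocount of 0.1 FPKM, where Mdm2 and Ddit4 came before Slc19a2. No paired analysis was possible because each group has 1 library. Depth limits the genes without reads to upper bounds.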

Other observations

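The genes nearest to Cdkn2d in pattern were looked up after its values were seen, by the measure used for Cdkn1a. They were Kif20b, Aspm, Ckap2l, Aurka and H2afx. Kif20b, a mitotic kinesin gene, lay at a distance of 0.03, with 6.85, 5.79 and 17.0 FPKM in HU plus gold nanocages, HU and control. Aspm, which acts at spindle poles, was at 3.09, 2.90 and 9.14 FPKM, and Aurka, a mitotic kinase gene, at 28.3, 27.7 and 70.1 FPKM. The likeness rests on 3 libraries and a pair of ratios.

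The noncoding gene Trp53cor1, known as lincRNA-p21, lies 11797 bases from Cdkn1a and was looked up after the values were seen. It had 27 reads in HU plus gold nanocages, 16 in HU and 9 in control. Its ratio was 1.33 in HU against control (0.553 to 3.41), 1.82 in HU plus gold nanocages against HU (0.944 to 3.61) and 2.41 in HU plus gold nanocages against control (1.10 to 5.83). Its level was at most 0.49 FPKM. Srsf3, the nearest protein-coding gene on that side of Cdkn1a, was at 62.4, 61.0 and 60.8 FPKM in HU plus gold nanocages, HU and control (1.00-fold in HU against control, 0.965 to 1.04). Rab44, on the other side, had at most 2 reads per library. Lockd, a noncoding gene 3579 bases downstream of Cdkn1b, had 42, 48 and 32 reads and a ratio of 1.12 in HU against control (0.702 to 1.81), while Cdkn1b was below counting error.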
